A study of Mus musculus with 16 samples.

Results

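The 9 genes described here encode enzymes of steroid, retinoid and xenobiotic metabolism, and their transcripts were followed through the fibroblastic reticular cells of the mouse inguinal lymph node. They are the cytochrome P450 genes Cyp2f2, Cyp2e1, Cyp26b1 and Cyp1b1, the methyltransferase gene Inmt, the corticosteroid dehydrogenase genes Hsd11b1 and Hsd11b2, and the retinaldehyde dehydrogenase genes Aldh1a1 and Aldh1a2. They were chosen by name, from a list drawn up with earlier results of these data in view, and taken by symbol from the 48440 gene rows of the count matrices. The study sequenced 16 droplet-based single-cell libraries of node cells that had been enriched with an antibody to podoplanin (PDPN), a surface protein of reticular and lymphatic endothelial cells. All mice were C57Bl/6, aged 8 weeks, with no transgene or deletion in any group. The naive group (4 libraries) received no cells. The live group received 500000 viable MC38 cells, a mouse colorectal carcinoma line, under the skin of the lower-right flank, and the fixed group received as many MC38 cells after paraformaldehyde treatment. On day 12 the inguinal node that drains the flank and the contralateral, non-draining node were taken, which gave 3 libraries for each node of each inoculated group. One tumor line at one time was studied, and the labels do not tie a library letter to a mouse, so p-values measure the spread between libraries.

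Across the 16 libraries the matrices held 7486725 to 48945961 UMIs (unique molecular identifiers, each counting 1 captured transcript), and 50386 cells passed the filters, with a median of 3421 to 5098 UMIs per cell. No pair of libraries had identical gene totals, and no pair shared more than 10 cell barcodes, nor more than 0.324% of the cells of its smaller library. Of these cells, 12595 formed the fibroblastic compartment, in which 13 clusters with 11295 cells could be named from markers and 5 clusters with 1300 cells could not. The named types were T-zone reticular-like cells (TRC, 3619 cells), marginal reticular-like cells (MRC, 3206), medullary reticular-like cells (MedRC, 2230), perivascular reticular-like cells (PRC, 1058), activated stromal-like cells (ActSC, 895) and follicular dendritic-like cells (FDC, 287). The 9 enzyme genes were kept out of the features used to cluster cells and out of the naming, although the study itself counted Inmt among its MedRC markers. Levels are CPM, the UMIs of a gene scaled to a common total, summed over all cells of a type in a library, and in such sums fewer expressing cells and less RNA per cell cannot be told apart.

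The names rested on markers that differed in strength. Ccl21a stood at 30430 CPM in TRC against at most 3265 elsewhere, Pi16 at 522 in PRC against at most 1.35, Nr4a1 at 915 in ActSC against at most 78.6, and Cr2 at 4817 in FDC against at most 289. Tnfsf11 marked MRC with 528 CPM against at most 127, and Enpp2 with 6099 against at most 2725. The other MRC markers stood higher in FDC, with Madcam1 at 243 CPM in MRC and 526 in FDC, and Cxcl13 at 22900 and 25940. B-zone reticular cells (BRC), a cluster of the study, were scored too, but no cluster took that name. The largest MRC cluster scored 0.695 for MRC and 0.607 for BRC. MedRC were less sharply set off, since Cxcl12 stood at 10820 CPM there and 10130 in ActSC, Stc1 at 575 CPM in MedRC, 536 in MRC and 892 in ActSC, and Il6 at 1.44 in MedRC. The larger PRC cluster scored 0.346 for PRC and 0.343 for MedRC. Results in these types are therefore given with the alternatives that redraw the borders. Some markers also moved between groups. Stc1 in MedRC ran from 716 to 831 CPM in naive, 468 to 543 in live non-draining and 241 to 397 in live draining libraries. Enpp2 in MRC ran from 6874 to 7342 CPM in live non-draining and 4235 to 4509 in live draining libraries, while the other MRC markers overlapped. The part of such shifts in the enzyme levels was not tested.

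Cytochrome P450 enzymes insert oxygen into small lipophilic molecules. CYP2E1 and CYP2F2 act on solvents and other foreign compounds and are best known from liver and airway, CYP1B1 acts on estrogens and polycyclic hydrocarbons, and CYP26B1 breaks down retinoic acid. Retinoic acid is made from retinaldehyde by the ALDH1A enzymes, HSD11B1 regenerates active glucocorticoid from its inert keto form, HSD11B2 runs the opposite reaction, and INMT methylates indole amines such as tryptamine. Reticular cells build the scaffold of the node and its niches for lymphocytes, and stromal retinoid and glucocorticoid handling are known to bear on lymphocytes nearby.

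Inmt, Cyp2f2 and Cyp2e1 moved together in MedRC, as described below, while Cyp26b1 was called higher than naive in MRC and MedRC of some inoculated groups, so the stretches before the starts of these 4 genes are shown. They come from RefSeq on build GRCm38.p6, run 5′ to 3′ on the strand of the gene and end before the first annotated transcribed base. Capitals mark TATAAA, the TATA box, searched on the strand of the gene, and AGGTCA, a half-site of nuclear receptors such as the retinoic acid receptor, searched on both strands.
Inmt, chr6:55175044-55175240, - strand: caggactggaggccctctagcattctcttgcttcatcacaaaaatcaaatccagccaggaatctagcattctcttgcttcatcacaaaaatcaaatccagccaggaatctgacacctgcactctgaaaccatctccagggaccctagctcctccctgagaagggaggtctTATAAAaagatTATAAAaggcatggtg
Cyp2f2, chr7:27119705-27119908, + strand: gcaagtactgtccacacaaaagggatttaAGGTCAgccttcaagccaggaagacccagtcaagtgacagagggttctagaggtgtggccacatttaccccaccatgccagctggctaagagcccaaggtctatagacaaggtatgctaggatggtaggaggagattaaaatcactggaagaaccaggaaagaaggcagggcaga
Cyp2e1, chr7:140763569-140763738, + strand: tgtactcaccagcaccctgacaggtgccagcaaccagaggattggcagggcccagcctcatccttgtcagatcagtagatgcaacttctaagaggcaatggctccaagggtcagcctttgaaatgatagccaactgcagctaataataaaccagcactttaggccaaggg
Cyp26b1, chr6:84593909-84594060, - strand: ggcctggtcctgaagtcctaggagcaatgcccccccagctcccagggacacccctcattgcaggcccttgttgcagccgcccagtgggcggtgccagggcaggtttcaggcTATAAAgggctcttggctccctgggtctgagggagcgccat
Counted from the RefSeq start, Inmt held TATAAA at 80 and 69 bases upstream, Cyp26b1 at 139 bases and Cyp2e1 at 31 bases, the last of these past the end of the stretch shown. Cyp2f2 held no TATAAA and 1 AGGTCA at 221 bases. Over 32851 mouse promoters, windows of 250 bases upstream held TATAAA in 7.59% and AGGTCA in 14.02% of cases. Neither GCGTG, the core of the element bound by the aryl hydrocarbon receptor (28.2% of promoters), nor AGAACA, a half-site of the glucocorticoid receptor (16.1%), occurred in the 4 windows, which says only that these letters are not there. GCGTG was found in the windows of Cyp1b1, Hsd11b1 and Aldh1a2. Promoters of 8 of the 9 genes were matched, and Hsd11b2 is named only.

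On the same build, Inmt lies on chromosome 6 from 55170626 to 55175043, Cyp2f2 on chromosome 7 from 27119909 to 27133660, Cyp2e1 on chromosome 7 from 140763739 to 140774987 and Cyp26b1 on chromosome 6 from 84571414 to 84593908. Cyp1b1 spans 79701537 to 79715061 of chromosome 17, Aldh1a1 20492715 to 20643465 of chromosome 19, Aldh1a2 71215789 to 71296243 of chromosome 9, Hsd11b1 193221634 to 193264075 of chromosome 1 and Hsd11b2 105518755 to 105523988 of chromosome 8. Whole genes are given, since counts were made per gene. Hsd11b1 overlaps Lamb3 on the opposite strand, which held 874 UMIs in the reticular types, and Cyp2f2 overlaps the antisense gene Gm15883, which held 30.

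In naive nodes each enzyme had its own place among the reticular types, given here as a description and not as a test. Inmt led in PRC, with 1386 ± 270.5 CPM in PRC (mean ± SD, n = 4 libraries), 1072 ± 51.4 in MedRC, 946 ± 215 in ActSC, 346 ± 51.5 in MRC and 60.8 ± 12.2 in TRC, while no UMI of it was counted in naive FDC. Library ranges of Inmt did not overlap between PRC and MedRC, between ActSC and MRC, between MRC and TRC or between TRC and FDC, but those of MedRC and ActSC did. Cyp2f2 led in MedRC at 321 ± 45.2 CPM and in ActSC at 228 ± 62.2, which overlapped, and stood at 72.6 ± 18.6 in MRC, 71.4 ± 34.1 in PRC and 15.9 ± 1.61 in TRC. Cyp2e1 stood at 84.0 ± 33.5 CPM in ActSC, 46.0 ± 14.2 in MRC, 44.0 ± 6.97 in MedRC and 9.70 ± 6.49 in PRC. The MRC range overlapped those of ActSC and MedRC, while the lowest ActSC library (55.0 CPM) lay just above the highest MedRC library (54.1 CPM).

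The retinoid genes were divided between the types. Cyp26b1, which removes retinoic acid, stood at 289 ± 31.3 CPM in naive TRC and 238 ± 15.0 in MRC, against 97.0 ± 28.2 in ActSC, 72.0 ± 8.64 in MedRC and 10.7 ± 8.14 in PRC. Aldh1a1, which makes it, followed another order, with 72.7 ± 8.54 CPM in PRC, 20.4 ± 3.54 in MedRC, 16.9 ± 8.45 in ActSC, 7.90 ± 2.22 in TRC and 4.55 ± 2.20 in MRC. Only the PRC range lay apart from the next. Aldh1a2, the other synthetic enzyme among the 9 genes (Aldh1a3 is taken up below), was next to absent from all of them, with no more than 4 UMIs in any reticular type over all 16 libraries. Of its UMIs in the series, 84.7% lay in dendritic cells, at 28.3 ± 15.1 CPM (n = 16).

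The corticosteroid dehydrogenases were divided as well. Hsd11b1 stood at 90.8 ± 30.5 CPM in naive PRC and at 0 to 5.98 CPM on average in the other 5 types. Hsd11b2 stood at 37.1 ± 10.9 CPM in FDC and 33.7 ± 6.77 in MedRC, whose ranges overlapped, and at 14.7 ± 4.27 in ActSC, 13.0 ± 1.62 in MRC, 5.73 ± 2.30 in TRC and 4.72 ± 2.51 in PRC. Cyp1b1 was found in all types, from 229 ± 21.9 CPM in PRC to 113 ± 7.72 in TRC and 65.4 ± 19.1 in FDC, and each range overlapped the next down to TRC.

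**Figure D1:**
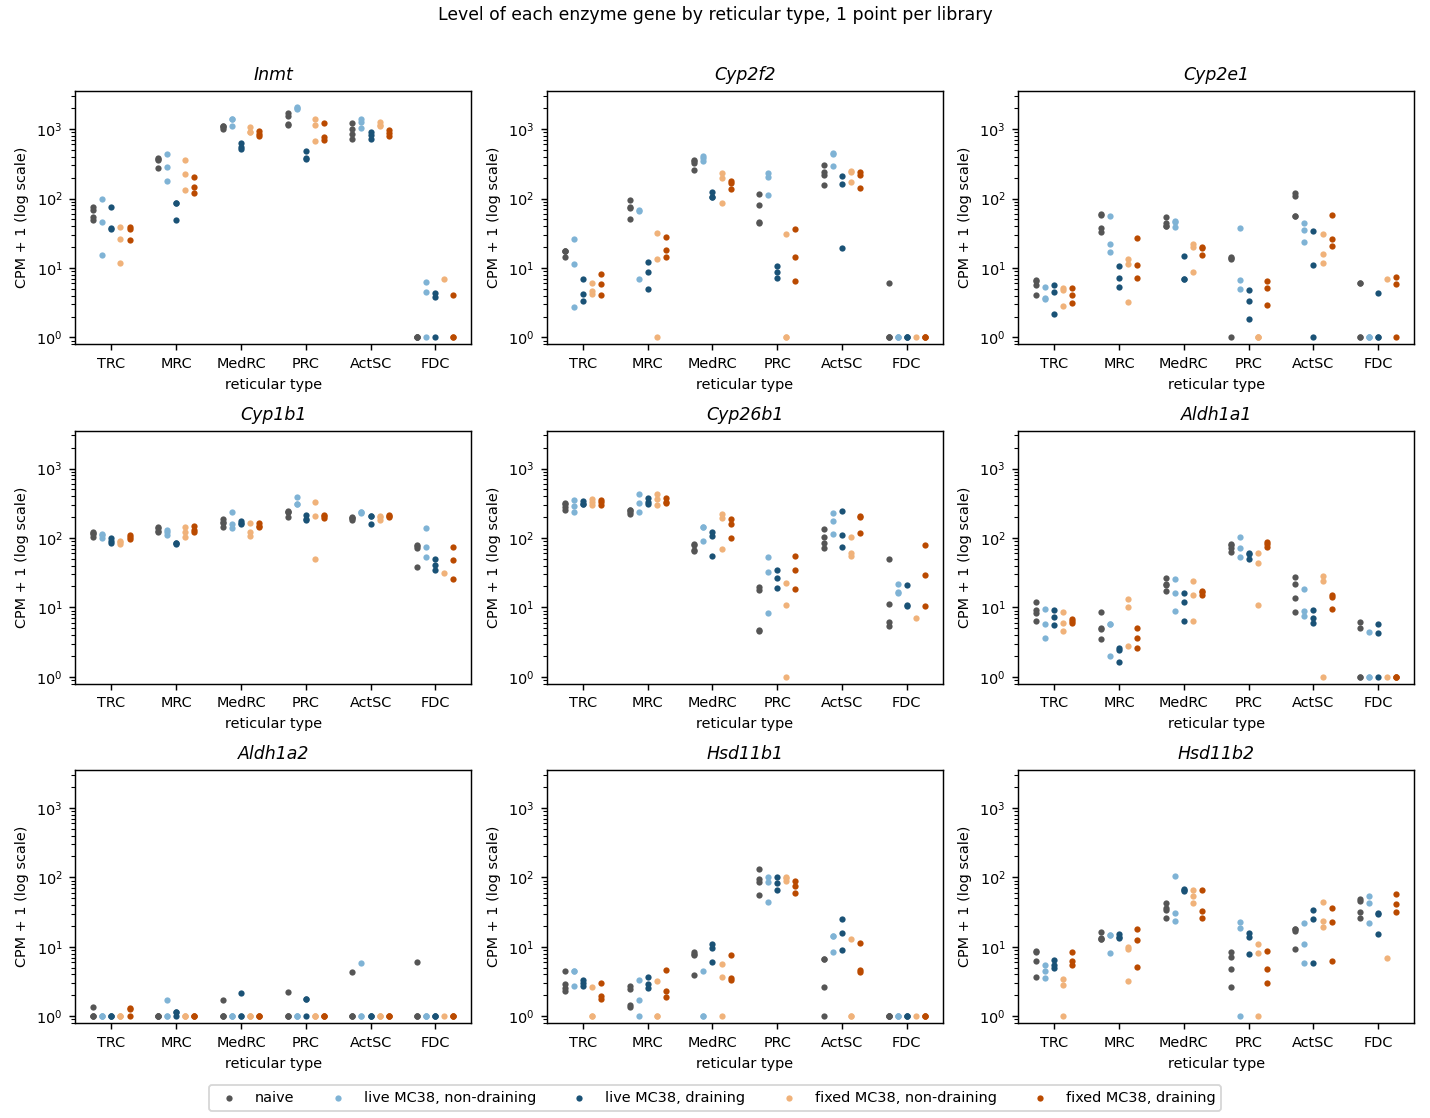
Level of each enzyme gene (CPM + 1, log axis) in each of the 6 reticular types, with 1 point per library colored by group. Inmt reaches 2073 CPM in PRC of a live non-draining node, Cyp26b1 is highest in TRC and MRC, Hsd11b1 is high in PRC alone, and Aldh1a2 lies at or near 0 throughout.

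Outside the reticular compartment, Cyp1b1 and Aldh1a2 had larger sources, the latter in dendritic cells as given above, and Hsd11b1 had a further one. Lymphatic endothelial cells (LEC) held 83.1% of all Cyp1b1 UMIs, at 883 ± 75.9 CPM (n = 16), and T and NK cells held 31.6% of the Hsd11b1 UMIs at 75.2 ± 23.8 CPM, close to the 83.9 ± 21.2 of PRC over all groups. B cells, which are not known to use these genes in quantity, were taken as a gauge of free RNA. They held 5.93 ± 5.30 CPM of Inmt, 0.603 ± 1.03 of Cyp2f2, 4.23 ± 1.98 of Cyp2e1 and 3.56 ± 3.39 of Cyp26b1. Cyp2e1 in TRC (3.55 ± 1.31 CPM over all 16 libraries) was thus no higher than in B cells, and no difference is read from it. For Hsd11b1 the 12.8 ± 5.16 CPM of B cells lay above the 1.27 ± 0.976 of macrophages and monocytes, so B cells gave no background level for that gene, and its low counts in TRC, MRC and MedRC were not tested.

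The comparison that the study was built around set the draining node against the contralateral node of mice with live tumors. Of 54 pairs of a gene and a type, 36 had enough counts to be tested, namely 7 genes each in TRC, MRC and MedRC, 6 each in PRC and ActSC and 3 in FDC. Which measured values had led to the choice of the 9 genes is not recorded, so their tests are not independent of that choice. In the live draining node 12 of the 36 pairs were lower and none was higher (edgeR quasi-likelihood test, Benjamini-Hochberg adjusted p under 0.05 over all genes of the type), while over all genes and types 8.17% of tests were called in either direction and 3.88% as lower. The median log2 fold change of the 36 pairs was -0.50, against medians of -0.03 to 0.00 over all genes of the 6 types. The calls fell on 4 genes, with 5 types for Cyp2f2, 3 for Inmt, and 2 each for Cyp2e1 and Cyp1b1. No call was made for Cyp26b1, Aldh1a1, Hsd11b1 or Hsd11b2.

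Inmt fell in the MedRC of the live draining node. The 4 naive libraries held 1002, 1065, 1117 and 1103 CPM, the live non-draining libraries 1386, 1399 and 1092, and the live draining libraries 521, 631 and 552. The fixed non-draining libraries held 1056, 916 and 901 CPM and the fixed draining libraries 931, 784 and 842. Every live draining library lay below each library of the other 4 groups, and the fixed draining range overlapped that of its non-draining partner. The change between live draining and live non-draining MedRC was -1.23 ± 0.11 on the log2 scale (± SE, adjusted p = 1.28e-10). It was called under all 27 alternatives, from -1.41 to -1.08.

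In PRC, the CD34-positive cells of the vessel sheath, Inmt dropped further. Naive PRC held 1696, 1528, 1132 and 1189 CPM, live non-draining PRC 1971, 2025 and 2073, and live draining PRC 488, 372 and 379. The live draining libraries again lay below all others, among which the fixed non-draining libraries ran from 683 to 1400 CPM and the fixed draining libraries from 703 to 1223. The log2 change against the live non-draining node was -2.29 ± 0.20 (adjusted p = 1.10e-08), and it was called under all 26 alternatives that gave a value. The larger PRC cluster alone, without the 64 cells of the Pi16 and Dpp4 cluster, gave -2.13. That larger cluster held 1012 CPM of Inmt and the Pi16 and Dpp4 cluster 46.9. PRC markers differed between the nodes as well. Pi16 ran from 28.9 to 143 CPM in live non-draining and 696 to 1066 in live draining PRC. Fndc1 ran from 101 to 113 and 341 to 381, and Cd34 from 166 to 444 and 617 to 702. The part of this shift in the Inmt and Cyp2f2 changes of PRC was not tested. In ActSC the change of -0.61 ± 0.17 missed the threshold (adjusted p = 0.0579), and in TRC it was -0.35 ± 0.29 (adjusted p = 0.566).

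Cyp2f2 fell along with Inmt. In MedRC the live draining libraries held 103, 122 and 105 CPM, against 406, 342 and 378 in the live non-draining node and 349, 258, 322 and 357 in naive nodes. The draining range lay below both others, and the log2 change against the non-draining node was -1.82 ± 0.14 (adjusted p = 4.44e-12), called under all 27 alternatives from -2.11 to -1.53. In PRC the live draining libraries held 9.82, 6.17 and 7.72 CPM (13, 8 and 9 UMIs) against 110.1, 203 and 234 in the live non-draining node (38, 28 and 59 UMIs). The groups did not overlap and the log2 change was -4.41 ± 0.42 (adjusted p = 3.59e-08), but with the clusters drawn after log-normalization it was -2.43 and missed the threshold (adjusted p = 0.0633).

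Cyp2f2 was also lower in ActSC and TRC of the live draining node. In ActSC the draining libraries held 159, 18.3 and 207 CPM against 441, 295 and 453 in the non-draining node, a log2 change of -1.59 ± 0.32 (adjusted p = 0.0054). This call was lost without the cells that held UMIs of leukocyte or endothelial genes (-0.94, adjusted p = 0.337) and with the clusters of log-normalized data (-0.68, adjusted p = 0.366). In TRC the draining libraries held 2.38, 3.26 and 5.99 CPM against 10.6, 25.2 and 1.71, which overlapped, and the log2 change of -1.69 ± 0.42 (adjusted p = 0.00914) was lost without live draining library A (-1.42, adjusted p = 0.0561) or live non-draining library B (-0.98, adjusted p = 0.24), and with the log-normalized clusters (-1.77, adjusted p = 0.0566).

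Cyp2e1, the ethanol- and solvent-oxidizing P450, behaved in MedRC as Cyp2f2 did. The live draining libraries held 5.97, 14.1 and 5.89 CPM (10, 21 and 7 UMIs), the live non-draining libraries 47.0, 44.7 and 37.3, and the naive libraries 39.3, 39.4, 43.0 and 54.1. No draining library reached the live non-draining or the naive range, although 1 fixed non-draining library, at 7.64 CPM, lay inside the draining range. The log2 change against the live non-draining node was -2.35 ± 0.29 (adjusted p = 5.06e-07), called under all 27 alternatives. The draining libraries at 5.97 and 5.89 CPM lay within the 1.44 to 8.70 CPM of B cells, the gauge of free RNA. The part of free RNA in the size of this change was not tested. In ActSC the change of -1.10 ± 0.63 was not called (adjusted p = 0.474), and in PRC no library exceeded 36.2 CPM and the gene was not tested.

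**Figure D2:**
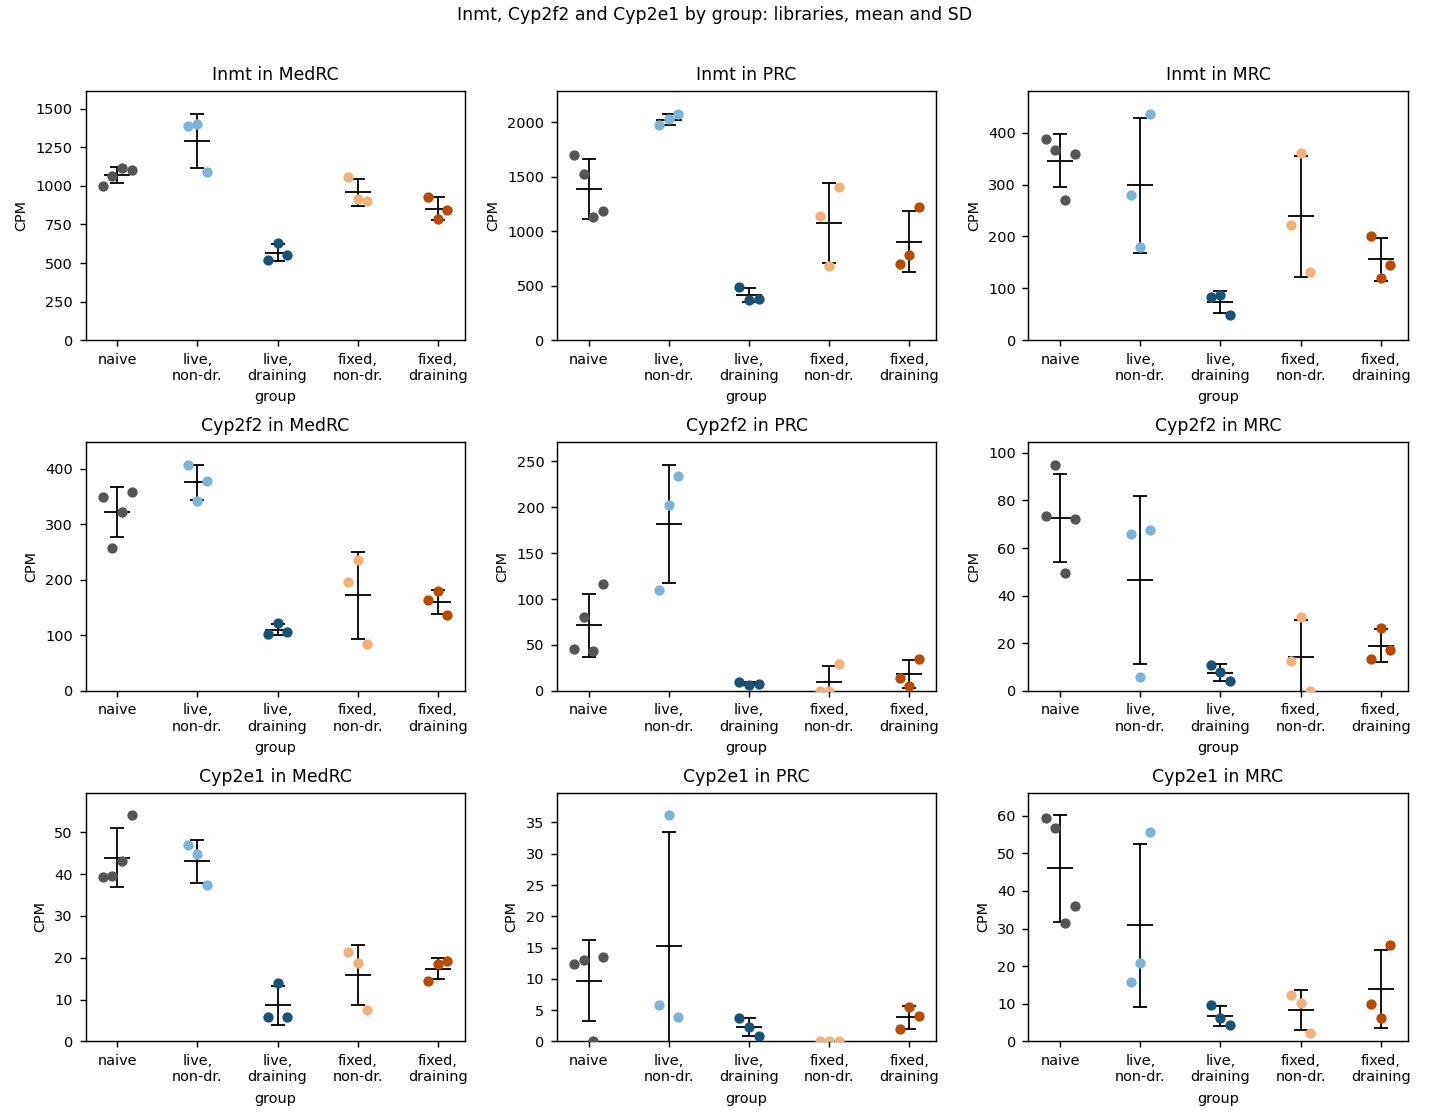
Inmt, Cyp2f2 and Cyp2e1 (rows) in MedRC, PRC and MRC (columns) by group, in CPM on a linear axis from 0. Points are libraries and bars give the mean and 1 SD, ending at the axis where they would pass 0. In MedRC all 3 live draining libraries lie below all live non-draining and all naive libraries for each of the 3 genes, with 521 to 631 CPM of Inmt against 1092 to 1399 and 1002 to 1117.

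The same change was visible cell by cell, in which each cell was thinned to 2000 UMIs so that depth could not set the shares. At this depth 45.2% ± 1.30 (SD, n = 3) of live draining MedRC held an Inmt UMI, against 74.8% ± 2.21 of live non-draining and 69.2% ± 3.74 of naive MedRC (n = 4). Unthinned shares were 64.5%, 83.8% and 79.5%. Cells with the transcript held 2.23 thinned UMIs on average in the live draining node, 3.26 in the non-draining and 2.93 in the naive node, so both the share of cells and the level within them were lower. In PRC the Inmt share was 34.8% ± 7.12 in the live draining node, 86.4% ± 11.9 in the live non-draining and 73.0% ± 4.99 in naive nodes. For Cyp2f2 in MedRC it was 16.6% ± 1.64, 38.6% ± 3.52 and 33.1% ± 4.03, while positive cells held 1.92, 2.02 and 2.08 UMIs. Of B cells, whose median was 1105 UMIs against 5578 in MedRC, 0.424% held an Inmt UMI after thinning (1.14% without it), and 0.125% a Cyp2f2 UMI without thinning. Thinning left out 37 live draining, 30 live non-draining and 86 naive MedRC.

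Markers of other cells were looked at beside these values. The summed level of 6 adipocyte markers was 16.1 to 50.0 CPM in naive MedRC, 7.47 to 17.2 in live non-draining MedRC and 5.89 to 11.4 in live draining MedRC. In MedRC the libraries of the live draining node lay above those of the live non-draining node for 4 lists of other cells. The 6 dendritic markers ran from 71.5 to 78.7 CPM against 18.4 to 57.2, the 5 macrophage and monocyte markers from 47.7 to 66.8 against 21.0 to 33.2, the 5 blood endothelial markers from 223 to 266 against 187 to 221, and the 4 plasma cell markers from 255 to 285 against 221 to 235. PRC showed larger shifts in the same direction, with 1641 to 2122 CPM against 723 to 954 for the blood endothelial list, which holds the PRC marker Cd34, 40.03 to 83.3 against 7.23 to 23.8 for macrophages and monocytes, 60.1 to 96.7 against 34.8 to 50.6 for dendritic cells and 12.9 to 23.4 against 0 to 8.70 for the 4 B cell markers. In MRC the 5 pericyte markers were lower in the live draining node, at 795 to 862 CPM against 1199 to 1436, and the dendritic markers higher, at 102 to 117 against 72.8 to 83.0. The part of these cells in the result was not tested as such. One alternative left out cells with a UMI of any of 20 leukocyte or endothelial genes, called below cells of mixed markers or with UMIs of other lineages. Of the lists above these genes hold the B cell markers, Flt3 (dendritic), Csf1r (macrophage), Flt1 and Emcn (blood endothelial) and Jchain (plasma cell). The other genes of these lists, and all pericyte and adipocyte markers, are not among them. In that alternative the changes were -1.38 for Inmt in MedRC, -2.25 for Inmt in PRC, -1.53 for Cyp2f2 in MedRC and -2.85 for Cyp2e1 in MedRC, each called. The median share of mitochondrial UMIs was 4.60% for MedRC of the live draining node and 5.71% for those of its contralateral node, and limiting it to 10% per cell kept the calls.

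MRC, the cells beneath the subcapsular sinus, gave calls of the same direction that depended on how their border was drawn. Inmt stood at 84.0, 86.4 and 48.3 CPM in live draining MRC, against 279, 179.5 and 436 in the non-draining node and 388, 367, 271 and 359 in naive nodes. The log2 change was -1.93 ± 0.23 (adjusted p = 2.80e-07). Cyp2f2 stood at 11.1, 7.84 and 4.04 CPM in live draining MRC against 66.1, 5.98 and 67.5 in the non-draining node, so that the ranges overlapped through non-draining library B. Its change of -2.52 ± 0.41 (adjusted p = 3.27e-05) was lost with cells gated one by one (-0.41, adjusted p = 0.765). Cyp2e1 changed by -1.95 ± 0.42 (adjusted p = 0.000901), a call lost without live non-draining library C (-1.34, adjusted p = 0.0506). Live draining MRC held 4.28 to 9.57 CPM of Cyp2e1, near the range of B cells (1.44 to 8.70 CPM).

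Most Inmt UMIs of MRC lay in 1 of their 4 clusters, led by Hamp2 and Pla2g7 (1372 cells). Its naive libraries held 550 ± 73.6 CPM of Inmt, whereas the cluster led by Hamp and Cxcl13 held 1.17 ± 2.33, that led by Adam33 9.56 ± 12.8 and that led by Dnajb1 101 ± 71.0. The Hamp2 cluster made up 60.0% of naive MRC, 38.7% of live non-draining, 33.6% of live draining, 40.5% of fixed non-draining and 40.8% of fixed draining MRC, so shares of clusters and levels per cell both enter the sums. Within it alone, live draining MRC held 181 ± 60.6 CPM of Inmt and live non-draining MRC 665 ± 188, and the changes were -1.83 for Inmt, -2.52 for Cyp2f2 and -2.33 for Cyp2e1, each called. In the other 3 clusters together the Inmt change was -2.42 (adjusted p = 0.00546). With clusters drawn after log-normalization, a cluster of 705 cells led by Dkk2, Kcnk3, Cyp2e1, Stc1 and Hamp2, with 1039 CPM of Inmt, took the MedRC name. MRC then changed by 0.87 for Inmt (adjusted p = 0.04, in the other direction), by 2.60 for Cyp2f2 (adjusted p = 0.153) and by -0.57 for Cyp2e1 (adjusted p = 0.421). MedRC kept its calls in that setting with -1.41, -2.11 and -1.98. The cells that carried Inmt in MRC were thus called MRC or MedRC depending on the clustering.

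**Figure D3:**
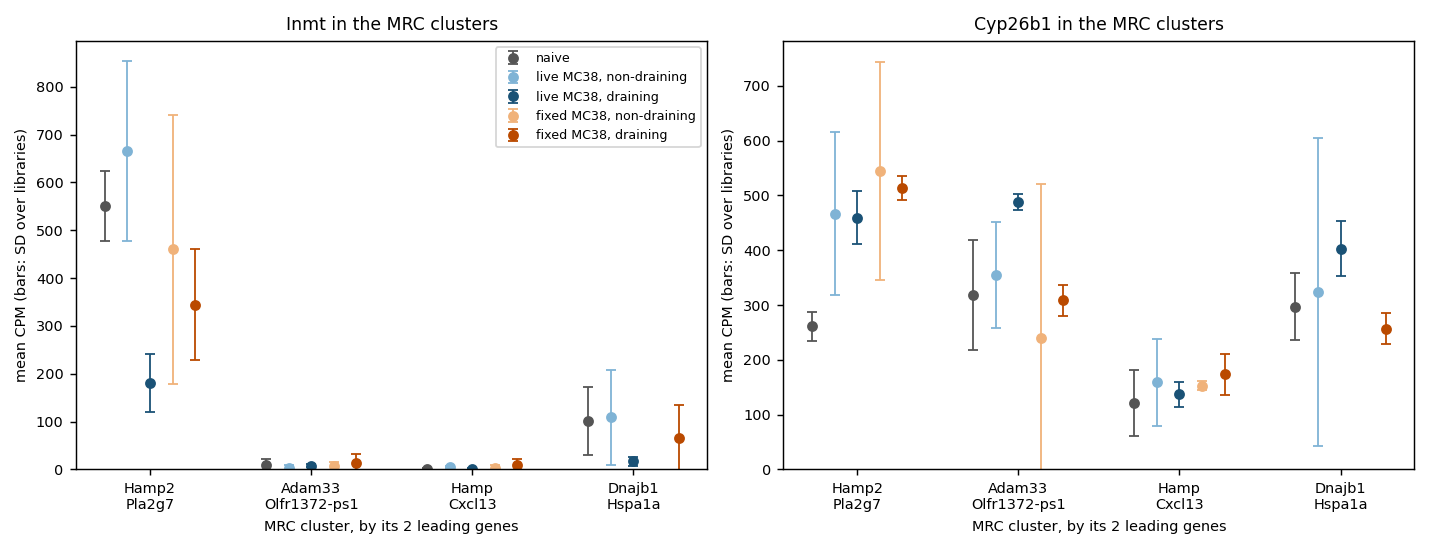
Mean level (CPM, linear axis from 0) of Inmt and Cyp26b1 in the 4 MRC clusters, named by their 2 leading genes, in the 5 groups, with bars of 1 SD over libraries that end at the axis where they would pass 0. In the Hamp2 cluster Inmt lies at 181 CPM in live draining nodes against 665 in live non-draining ones and stays below 14 in the Hamp and Adam33 clusters, and Cyp26b1 in the Hamp2 cluster is lowest in naive nodes at 261 CPM.

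Cyp1b1 fell by less. In MRC the live draining libraries held 84.3, 80.5 and 83.3 CPM, against 123, 109 and 129 in the live non-draining node and 120.1 to 144 in naive nodes. These ranges did not overlap, and the log2 change was -0.49 ± 0.10 (adjusted p = 0.000924). It remained called in the Hamp2 cluster alone (-0.50, adjusted p = 0.013) and without it (-0.47, adjusted p = 0.043), but not with the clusters of log-normalized data (-0.28, adjusted p = 0.0614). In PRC Cyp1b1 held 184, 183 and 212 CPM in the draining and 307, 383 and 309 in the non-draining node, a log2 change of -0.75 ± 0.20 (adjusted p = 0.0162). That call was lost without live draining library A (-0.70, adjusted p = 0.0639) or B (-0.70, adjusted p = 0.0644), and without live non-draining library A (-0.78, adjusted p = 0.0579) or B (-0.67, adjusted p = 0.0764). It was also lost with the log-normalized clusters (-0.57, adjusted p = 0.168) and with gated cells (-0.55, adjusted p = 0.407). LEC, the main carriers of Cyp1b1, left 18.3 to 26.7 CPM of 5 LEC markers in live draining MRC and 43.8 to 50.3 in live non-draining MRC, and their part in the Cyp1b1 change was not tested. Without cells of mixed markers, whose gene set held Prox1, Lyve1 and Flt4 but not all 5 LEC markers, the MRC change was -0.87 (adjusted p = 0.00052).

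In mice given fixed MC38 cells the same comparison of draining with non-draining nodes made 0 calls among the 36 pairs, with 7 at an unadjusted p under 0.05, 0 by DESeq2 and 0.014% of all tests called. DESeq2 gave no adjusted p for 9 of these pairs. The fixed non-draining node was the thinnest group, with 139 MedRC, 158 MRC and 44 PRC. In MedRC, Inmt changed by -0.18 ± 0.12 (adjusted p = 0.856), Cyp2f2 by -0.20 ± 0.19 (adjusted p = 0.916) and Cyp2e1 by -0.03 ± 0.47 (adjusted p = 0.999). Some pairs were little constrained, such as Cyp2f2 in PRC at 0.96 ± 1.20 from 0, 0 and 3 UMIs in the fixed non-draining libraries.

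The difference of the draining effects, live minus fixed, was tested directly and called in 8 of 36 pairs, all lower, against 2.26% of all tests in either direction and 1.19% as lower. In MedRC it was -1.05 ± 0.16 for Inmt (adjusted p = 6.86e-05), -1.61 ± 0.24 for Cyp2f2 (adjusted p = 2.97e-05) and -2.32 ± 0.53 for Cyp2e1 (adjusted p = 0.0159). In PRC it was -2.05 ± 0.29 for Inmt (adjusted p = 8.41e-05) and -5.38 ± 1.07 for Cyp2f2 (adjusted p = 0.00557). Inmt in MedRC and in PRC kept its call under every alternative that gave a value. The Cyp2f2 difference in PRC rested on 3 UMIs in the fixed non-draining node, all in library C, and the fitted value without that library, -10.74, is no bound, since no UMI was then left in the group. Its call was lost without fixed draining library C (-4.51, adjusted p = 0.0791) and with the log-normalized clusters (-4.46, adjusted p = 0.312). The call of Cyp2e1 in MedRC was lost without the cells that held UMIs of other lineages (-2.59, adjusted p = 0.0522), and without live draining library A (-2.08, adjusted p = 0.0671), live non-draining library A (-2.20, adjusted p = 0.0514) or fixed non-draining library A (-2.63, adjusted p = 0.0663). Cyp2f2 in MedRC lost its call without the cells that held UMIs of other lineages (-1.07, adjusted p = 0.106) and in the largest MedRC cluster alone (-1.16, adjusted p = 0.0591).

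The 3 differences in MRC were the least firm. They stood at -2.88 ± 0.76 for Cyp2f2 (adjusted p = 0.0189), -1.29 ± 0.35 for Inmt (adjusted p = 0.0213) and -0.55 ± 0.16 for Cyp1b1 (adjusted p = 0.0385). Cyp2f2 lost its call without live non-draining A (-2.40, adjusted p = 0.0677), fixed draining B (-2.55, adjusted p = 0.0813), fixed non-draining A (-2.76, adjusted p = 0.0628) or fixed non-draining C (-2.39, adjusted p = 0.0665). It also lost it with DESeq2 (-2.90, adjusted p = 0.122), with the log-normalized clusters (-4.30, adjusted p = 0.693), with gated cells (-1.19, adjusted p = 0.762) and without cells of mixed markers (-3.58, adjusted p = 0.0849). Inmt lost it without live draining C, live non-draining C, fixed draining A, fixed non-draining A or fixed non-draining C, where the difference ran from -1.25 to -0.996 and the adjusted p from 0.0533 to 0.0853. It was lost as well with DESeq2 (-1.32, adjusted p = 0.131) and without the largest cluster (-1.08, adjusted p = 0.558), and turned to 1.92 with the log-normalized clusters (adjusted p = 0.0193). For Cyp1b1 the call was lost without any one of live draining A, B or C, live non-draining A or C, fixed draining C, and fixed non-draining B or C (-0.57 to -0.43, adjusted p from 0.0506 to 0.161). It was further lost with the log-normalized clusters (-0.12, adjusted p = 0.778), without the largest cluster (-0.30, adjusted p = 0.623), in the 12 libraries of inoculated mice alone (-0.56, adjusted p = 0.0526) and at 10% mitochondrial UMIs (-0.55, adjusted p = 0.0514).

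**Figure D4:**
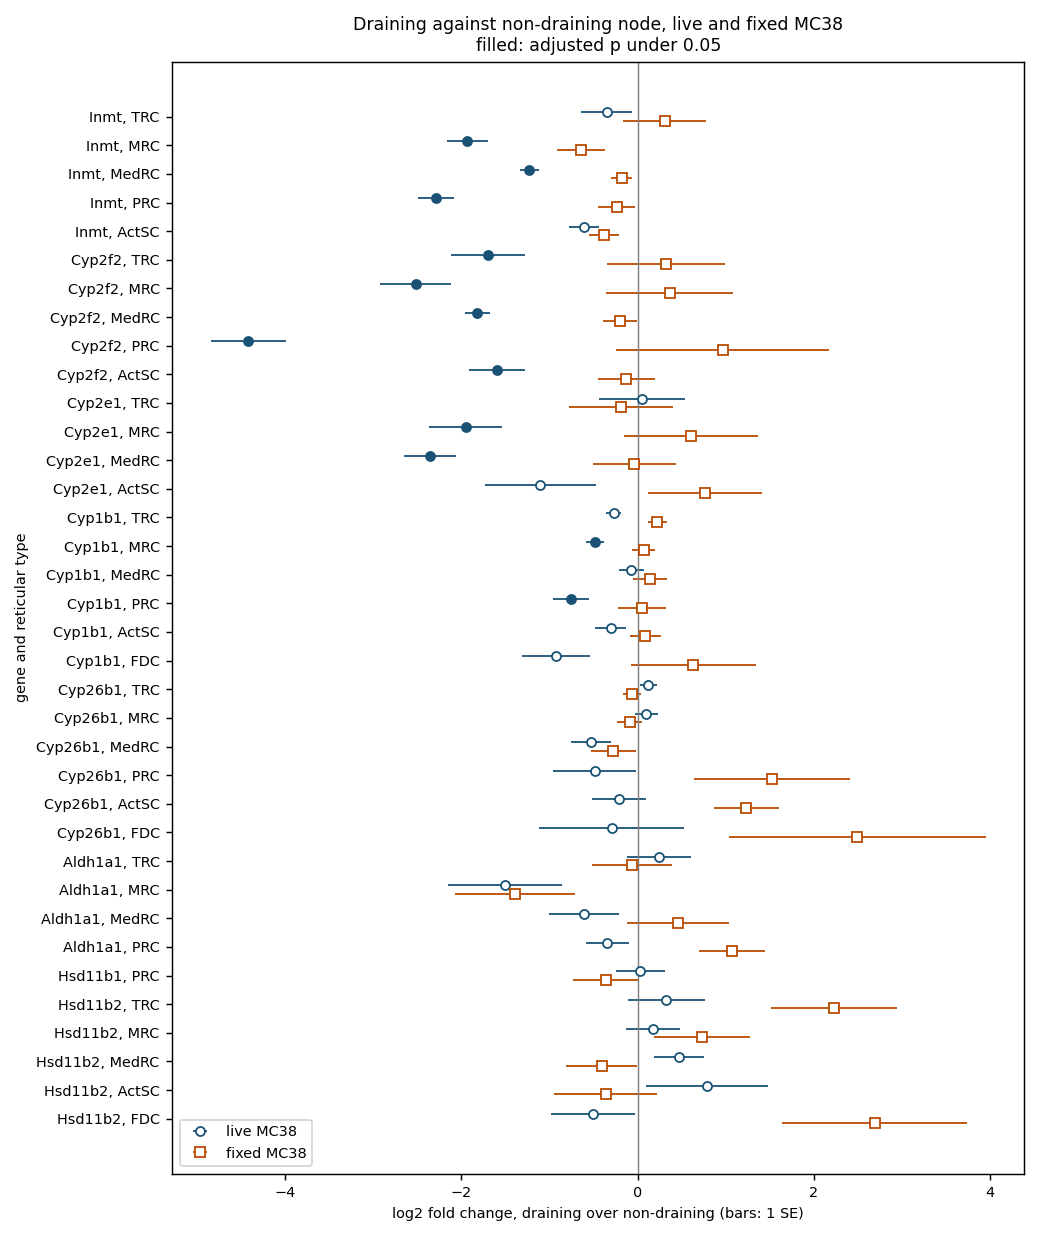
Log2 fold change of the draining over the non-draining node (bars, 1 SE) for the 36 tested pairs of gene and type, with circles for live and squares for fixed MC38 and filled symbols for adjusted p under 0.05. Filled circles mark 12 pairs, all left of 0 and all of Inmt, Cyp2f2, Cyp2e1 or Cyp1b1, and no square is filled.

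Against naive nodes, 16 of 36 pairs were called in the live draining node, 14 lower and 2 higher, where 12.8% of all tests were called. In the fixed draining node 10 pairs were called, 8 lower and 2 higher (1.76% of all tests), in the fixed non-draining node 6, 4 lower and 2 higher (0.899%), and in the live non-draining node 0 (0.517%), with 13 at an unadjusted p under 0.05 and 0 by DESeq2. For 17 pairs of the live non-draining comparison DESeq2 gave no adjusted p. The 4 comparisons with naive nodes share the same 4 naive libraries, so their values are set side by side only. For Inmt in MedRC they were -0.91 ± 0.10 (live draining, adjusted p = 6.28e-09), 0.32 ± 0.10 (live non-draining, adjusted p = 0.298), -0.27 ± 0.10 (fixed draining, adjusted p = 0.167) and -0.10 ± 0.11 (fixed non-draining, adjusted p = 0.785). In PRC Inmt gave -1.76 ± 0.19 (adjusted p = 3.13e-07), 0.53 ± 0.18 (adjusted p = 0.368), -0.69 ± 0.18 (adjusted p = 0.0658) and -0.45 ± 0.20 (adjusted p = 0.483) in the same order. Among these 4 comparisons, the call on Inmt in MedRC and PRC was made in live draining nodes alone, while MRC of the fixed draining node had a call too, as given below, and the differences between the comparisons were tested only as given above.

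Cyp2f2 and Cyp2e1 in MedRC of fixed-cell mice also stood below their naive levels. The fixed draining libraries held 164, 179.6 and 136 CPM of Cyp2f2 in MedRC and the fixed non-draining libraries 197, 235 and 84.0, all below the 258 CPM of the lowest naive library. Their log2 changes were -0.95 ± 0.13 (adjusted p = 3.49e-06) and -0.75 ± 0.17 (adjusted p = 0.0131), beside -1.54 ± 0.12 in the live draining node (adjusted p = 3.22e-12). The fixed non-draining call was lost without library A (-0.85, adjusted p = 0.0832) or C (-0.56, adjusted p = 0.123) of that group, without cells of mixed markers (-0.62, adjusted p = 0.189) and in the largest MedRC cluster alone (-0.44, adjusted p = 0.528). The fixed draining call was kept under all 26 alternatives.

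For Cyp2e1 in MedRC the fixed draining libraries held 14.6, 18.4 and 19.3 CPM and the fixed non-draining libraries 21.3, 18.8 and 7.64, below the naive range of 39.3 to 54.1. The changes were -1.27 ± 0.23 (adjusted p = 0.000937) and -1.23 ± 0.37 (adjusted p = 0.0996), and that of the live draining node was -2.31 ± 0.23 (adjusted p = 4.55e-10). MedRC of fixed-cell mice were shallower than naive MedRC (median 4611 and 3973 UMIs against 6243) and had a higher mitochondrial share (7.97% and 8.601% against 4.43%), and the part of cell quality in these values was not tested. With at most 10% mitochondrial UMIs per cell the Cyp2f2 change in fixed draining MedRC stayed called, while that in fixed non-draining MedRC did not (-0.75, adjusted p = 0.0974).

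Cyp2f2 was called against naive in other types too. In live draining nodes it changed by -3.12 ± 0.40 in PRC (adjusted p = 4.86e-06), -3.10 ± 0.29 in MRC (adjusted p = 1.39e-09) and -2.05 ± 0.33 in TRC (adjusted p = 5.42e-05), of which that in MRC was lost with the log-normalized clusters (-0.13, adjusted p = 0.903). In fixed draining nodes the changes were -2.05 ± 0.43 in PRC (adjusted p = 0.0138), -1.91 ± 0.31 in MRC (adjusted p = 0.000192) and -1.64 ± 0.32 in TRC (adjusted p = 0.00456). The PRC call in fixed nodes was lost without naive D (-1.71, adjusted p = 0.057), fixed draining A (-1.88, adjusted p = 0.0998) or fixed draining B (-1.60, adjusted p = 0.122), and the TRC call without fixed draining B (-1.38, adjusted p = 0.0788). With the log-normalized clusters all 3 were lost, with -1.65 in PRC (adjusted p = 0.229), 0.65 in MRC (adjusted p = 0.801, in the other direction) and -1.53 in TRC (adjusted p = 0.0513). The MRC call was also lost with DESeq2 (-1.93, adjusted p = 0.155), and the PRC call without cells of mixed markers (-1.45, adjusted p = 0.27) and at 10% mitochondrial UMIs (-1.89, adjusted p = 0.0553). In MRC of the fixed non-draining node Cyp2f2 changed by -2.27 (adjusted p = 0.0219) and Cyp2e1 by -2.39 (adjusted p = 0.0246), and 7 and 8 of their alternatives lost the call. Cyp2e1 in ActSC, where naive libraries held 55.0 to 118 CPM, stood at 0 to 32.5 in live draining, 19.6 to 57.5 in fixed draining and 10.8 to 30.2 in fixed non-draining nodes. The changes were -2.42 ± 0.50 (adjusted p = 0.00479), -1.44 ± 0.32 (adjusted p = 0.0255) and -2.21 ± 0.53 (adjusted p = 0.0335), and the first was lost with the log-normalized clusters (-1.88, adjusted p = 0.1).

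The calls of Cyp2e1 in ActSC of fixed-cell mice depended on single libraries and on the choice of cells. The fixed draining call was lost without naive B (-1.23, adjusted p = 0.174), naive C (-1.31, adjusted p = 0.12), fixed draining A (-1.25, adjusted p = 0.244) or fixed draining B (-1.17, adjusted p = 0.228). The fixed non-draining call was lost without naive B or C or any 1 of its own 3 libraries, with changes from -2.76 to -1.88. Without cells of mixed markers and at 10% mitochondrial UMIs both were lost, with -1.38 (adjusted p = 0.261) and -1.20 (adjusted p = 0.206) in the draining and -1.58 (adjusted p = 0.308) and -2.27 (adjusted p = 0.0531) in the non-draining node. The latter was also lost with the log-normalized clusters (-2.12, adjusted p = 0.266). In MRC of the fixed draining node Cyp2e1 changed by -1.78 ± 0.31 against naive (adjusted p = 0.000527) and Inmt by -1.14 ± 0.21 (adjusted p = 0.000631), where the share of the Hamp2 cluster was also lower than in naive nodes, as given above. Inside that cluster the Inmt change was -0.69 and missed the threshold (adjusted p = 0.0722), as it did without that cluster (-0.47, adjusted p = 0.882), with gated cells (-0.57, adjusted p = 0.588) and with the log-normalized clusters (-0.34, adjusted p = 0.758). The Cyp2e1 call was lost with DESeq2 (-1.72, adjusted p = 0.0525) and with the log-normalized clusters (-1.55, adjusted p = 0.104).

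Cyp26b1 moved the other way in MedRC and MRC, to levels above naive. In MedRC the naive libraries held 78.6, 63.9, 80.2 and 65.1 CPM, the fixed draining libraries 99.2, 188 and 157 and the fixed non-draining libraries 221, 193 and 68.7. The fixed draining range lay above the naive range, and that of the non-draining node overlapped it through library C. The log2 changes were 1.11 ± 0.19 (adjusted p = 0.000318), called under all 26 alternatives, and 1.38 ± 0.26 (adjusted p = 0.00139), lost without fixed non-draining library A (1.03, adjusted p = 0.262), without cells of mixed markers (0.85, adjusted p = 0.182) and at 10% mitochondrial UMIs (1.099, adjusted p = 0.137). In mice with live tumors Cyp26b1 in MedRC stood at 141, 145 and 89.6 CPM in the non-draining and 54.3, 105 and 121 in the draining node, with changes of 0.88 ± 0.22 (adjusted p = 0.0598) and 0.35 ± 0.18 (adjusted p = 0.253). Over all groups the smaller MedRC cluster held 170 CPM of Cyp26b1 and the larger 75.9. Cells of the smaller cluster were shallower (median 3293 against 9934 UMIs), with more mitochondrial UMIs (9.20% against 3.17%). They made up 45.5% of naive, 50.1% of fixed draining and 59.0% of fixed non-draining MedRC. Both fixed-cell calls were kept in the larger cluster alone, and the part of cell quality was not tested.

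In MRC the 4 naive libraries held 217 to 249 CPM of Cyp26b1, the live draining libraries 303 to 373, the fixed draining libraries 319 to 379 and the fixed non-draining libraries 296 to 431, all above the naive range. The log2 changes were 0.56 ± 0.11 (adjusted p = 0.000301), 0.54 ± 0.12 (adjusted p = 0.00449) and 0.63 ± 0.14 (adjusted p = 0.0101), and 0.45 ± 0.13 in the live non-draining node (adjusted p = 0.0654). Draining and non-draining nodes were close to each other, at 0.10 ± 0.13 for live (adjusted p = 0.635) and -0.09 ± 0.14 for fixed cells (adjusted p = 0.955). The Hamp2 cluster held 261 ± 26.6 CPM in naive, 459 ± 48.7 in live draining and 513 ± 22.3 in fixed draining nodes, while the Adam33 cluster held 318 ± 101, 488 ± 15.2 and 308 ± 28.6. Without the Hamp2 cluster the 3 calls were lost, with 0.35 (adjusted p = 0.137), 0.13 (adjusted p = 0.943) and 0.25 (adjusted p = 0.843). The call in fixed non-draining MRC was also lost without fixed non-draining library B (0.63, adjusted p = 0.0595) or C (0.48, adjusted p = 0.135), and without cells of mixed markers (0.72, adjusted p = 0.0611). With the log-normalized clusters both fixed-cell calls were lost (0.26, adjusted p = 0.362, and 0.21, adjusted p = 0.61), and that of the draining node with gated cells as well (0.45, adjusted p = 0.228). In TRC, where Cyp26b1 was most abundant, no comparison was called and the 16 libraries spanned 233 to 365 CPM.

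**Figure D5:**
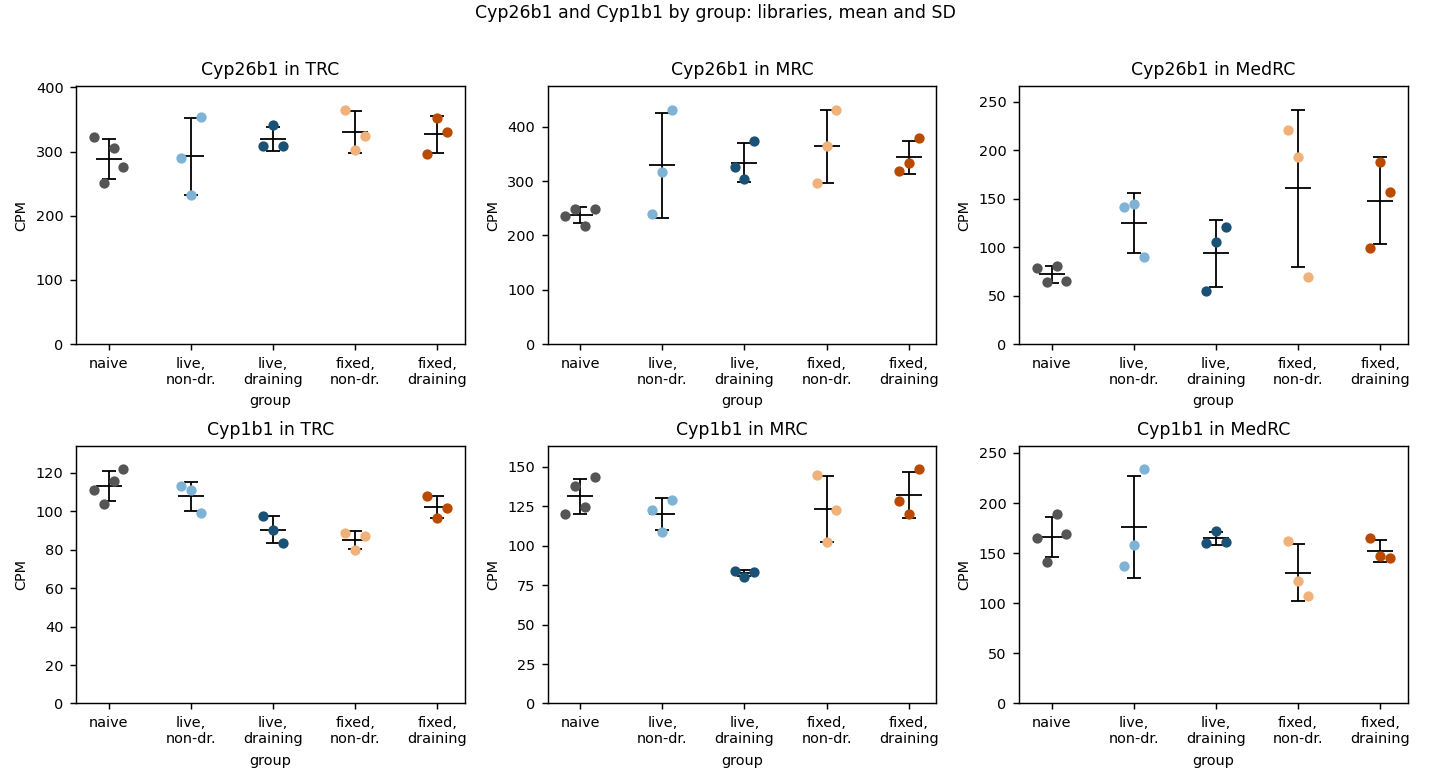
Cyp26b1 (top) and Cyp1b1 (bottom) in TRC, MRC and MedRC by group, in CPM on a linear axis from 0, with points for libraries and bars for the mean and 1 SD. In MRC the naive libraries hold 217 to 249 CPM of Cyp26b1, below all live draining and all fixed libraries, and the 3 live draining libraries hold 80.5 to 84.3 CPM of Cyp1b1, below all others.

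Cyp1b1 was lower than naive in the live draining node in MRC (-0.60 ± 0.08, adjusted p = 1.22e-06) and TRC (-0.28 ± 0.07, adjusted p = 0.00947). In TRC the live draining libraries held 97.6, 90.0 and 83.6 CPM and the naive libraries 104 to 122, and the call was lost without naive library D (-0.24, adjusted p = 0.0515) or live draining library C (-0.23, adjusted p = 0.0826). Within the Hamp2 cluster alone the MRC change was -0.25 and not called (adjusted p = 0.0888).

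Aldh1a1, the retinoic acid-forming enzyme, was called only against naive. In live draining MRC the libraries held 0.660, 1.57 and 1.43 CPM (4, 10 and 6 UMIs) against 4.07, 7.67, 3.95 and 2.50 in naive MRC (11, 18, 9 and 5 UMIs). The log2 change was -1.82 ± 0.45 (adjusted p = 0.00207), called under the 20 alternatives that gave a value. In MedRC the live draining libraries held 14.9, 5.37 and 10.9 CPM against 16.5 to 25.1, a change of -0.93 ± 0.28 (adjusted p = 0.0223) that was lost without naive B (-0.81, adjusted p = 0.0784), live draining B (-0.60, adjusted p = 0.221) or live draining C (-0.94, adjusted p = 0.0589). It was also lost with DESeq2 (-0.94, adjusted p = 0.0658), the log-normalized clusters (-0.59, adjusted p = 0.0635), gated cells (-0.68, adjusted p = 0.0867), without cells of mixed markers (-0.85, adjusted p = 0.28) and at 10% mitochondrial UMIs (-0.81, adjusted p = 0.0617). In PRC, its main reticular site, Aldh1a1 stood at 58.9, 57.1 and 48.9 CPM in the live draining libraries against 69.6, 101 and 51.5 in the contralateral ones, and the change of -0.34 ± 0.25 was not called (adjusted p = 0.471).

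Among the glucocorticoid enzymes, Hsd11b2, which inactivates corticosterone, was higher in live draining MedRC than in naive MedRC. The live draining libraries held 63.8, 67.8 and 62.2 CPM against 25.2, 35.3, 41.6 and 32.6, a change of 0.98 ± 0.21 (adjusted p = 0.000972). The live non-draining libraries spread from 22.4 to 103 CPM, so that the change against them, 0.47 ± 0.28, was not called (adjusted p = 0.432). The naive comparison was lost without cells that held UMIs of other lineages (0.33, adjusted p = 0.633) and under DESeq2 (0.96, adjusted p = 0.213). Hsd11b1, the reactivating enzyme, was tested in PRC alone, where the live draining libraries held 64.2, 99.5 and 83.2 CPM and the live non-draining libraries 84.1, 43.4 and 99.1. These ranges overlapped and the change was 0.03 ± 0.28 (adjusted p = 0.976). It was called in none of the 7 comparisons.

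The remaining 18 pairs were not tested for want of counts. They were Aldh1a2 in all 6 types, Hsd11b1 in the 5 types other than PRC, Cyp2e1 and Hsd11b2 in PRC, Aldh1a1 in ActSC, and Inmt, Cyp2f2, Cyp2e1 and Aldh1a1 in FDC. FDC fits rested on 14 libraries, since 2 fixed non-draining libraries held fewer than 10 such cells.

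The wider pathways were described with 5 gene lists. In the live draining against the live non-draining node, 12 of 91 gene-by-type tests of the retinoid list (31 genes, 22 tested) were called, 7 higher and 5 lower, or 13.2%. Steroid enzymes and receptors gave 11 of 80 (3 higher, 8 lower, 13.8%), known targets of the glucocorticoid receptor 18 of 80 (2 higher, 16 lower, 22.5%), xenobiotic genes 29 of 214 (15 higher, 14 lower, 13.6%) and other P450 genes 7 of 56 (1 higher, 6 lower, 12.5%). The share over all genes was 8.17%, as above. Median log2 fold changes were 0.00 for retinoid, -0.22 for steroid, -0.35 for glucocorticoid target, -0.02 for xenobiotic and -0.19 for other P450 genes. Against naive nodes the glucocorticoid target list gave 23 of 80 in live draining nodes (11 higher, 12 lower, 28.75%, all genes 12.8%). In live non-draining nodes it gave 5 of 80 against naive (5 higher, 0 lower, 6.25%, all genes 0.517%). The median log2 fold changes of that list against naive were -0.11 and 0.25. Sult1a1 stood on the steroid and the glucocorticoid target list, and several P450 genes on both the steroid and the P450 list. With fixed cells none of the 5 lists had a call in edgeR between draining and non-draining nodes.

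In the retinoid list Rarres1, a retinoic acid-responsive gene, rose in live draining MRC by 1.59 ± 0.14 (adjusted p = 5.88e-10). Aldh1a3, the third enzyme of the Aldh1a1 family, fell in MRC by 1.87 on the log2 scale (SE 0.25, adjusted p = 2.34e-06), and Dhrs3, which reduces retinaldehyde, changed there by -0.76 ± 0.14 (adjusted p = 0.000157). Of the steroid genes, Esr1, an estrogen receptor, changed by -1.81 ± 0.24 in MRC (adjusted p = 2.04e-06) and -1.17 ± 0.29 in TRC (adjusted p = 0.0101). Sult1a1, a sulfotransferase, changed by -0.82 ± 0.20 in MRC (adjusted p = 0.00276), as did the mineralocorticoid receptor gene Nr3c2 by -1.13 ± 0.27 (adjusted p = 0.00299). The glucocorticoid receptor gene Nr3c1 was lower in MRC (-0.37 ± 0.09, adjusted p = 0.00503) and TRC (-0.36 ± 0.09, adjusted p = 0.0134).

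Among glucocorticoid targets, Klf9 was lower in PRC (-1.24 ± 0.15, adjusted p = 2.82e-06), MRC (-0.62 ± 0.11, adjusted p = 0.00017) and TRC (-0.45 ± 0.08, adjusted p = 0.000473), and Errfi1 in MedRC (-0.99 ± 0.14, adjusted p = 8.32e-06) and PRC (-0.89 ± 0.18, adjusted p = 0.00132). The 2 that rose, both in MRC and both also acute-phase genes, were Lcn2 (1.79 ± 0.21, adjusted p = 3.06e-07) and Cebpd (0.91 ± 0.10, adjusted p = 7.12e-08). Nnmt, a methyltransferase that like Inmt uses S-adenosylmethionine, rose by 1.15 ± 0.15 in MRC (adjusted p = 1.69e-06), 0.64 ± 0.16 in MedRC (adjusted p = 0.0115) and 0.95 ± 0.12 in TRC (adjusted p = 5.30e-07). Inmt was called lower in MRC, MedRC and PRC, but not in TRC. Maob, which oxidizes amines, changed by -1.04 ± 0.13 in MRC (adjusted p = 5.66e-07), the epoxide hydrolase gene Ephx1 by -0.70 ± 0.12 in MRC (adjusted p = 6.66e-05) and the glutathione transferase gene Mgst1 by -0.97 ± 0.15 in PRC (adjusted p = 6.52e-05). Of the other P450 genes, Cyp2d22 was lower in MRC (-1.74 ± 0.26, adjusted p = 9.08e-06), PRC (-1.16 ± 0.29, adjusted p = 0.0106) and TRC (-0.87 ± 0.17, adjusted p = 0.000704), Cyp4b1 in PRC (-2.33 ± 0.70, adjusted p = 0.0355) and Cyp2u1 in MRC (-0.96 ± 0.34, adjusted p = 0.0427), while Cyp39a1, an oxysterol hydroxylase, was higher in MRC (1.40 ± 0.48, adjusted p = 0.0349). The redrawn clusterings were summarised for the 9 enzymes only, so the dependence of these MRC values on the border was not tested.

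Likeness of pattern was described over 94 points, each 1 type in 1 library, and 8827 genes by Pearson's r of log2(CPM + 1). The points share libraries and depth, and no p is attached. Inmt was most like Sned1 (r = 0.94), Pcdh19 (0.94) and Id4 (0.94). Cyp2f2 was most like Ncoa7 (0.84), Sned1 (0.83) and Atp1b1 (0.83), and Cyp2e1 was most like Cyp2f2 (0.78), followed by Nap1l5 (0.76) and 6530403H02Rik (0.76). Cyp26b1 went with Col6a4 (0.86) and Mycbp2 (0.86), Cyp1b1 with Klf7 (0.86), Klhl13 (0.85) and Man2a1 (0.84), and Aldh1a1 with Ogn (0.87), Fmo2 (0.86) and Ptrf (0.86). For Hsd11b1 they were Lama2 (0.91), Igfbp6 (0.90) and Ly6c1 (0.89). The closest genes to Hsd11b2 were no nearer than Hlf (0.59), Htra1 (0.57) and Pard3b (0.57), and those to Aldh1a2, which is too sparse to place, reached 0.37 with Retnla.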

How the data were processed

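The authors deposited 1 matrix of UMI counts per library, made with Cell Ranger 3.0.1 on mm10, with droplet 3′ chemistry. These raw counts were used with no further scaling by the authors. Cells with 200 to 6000 genes and at most 30% mitochondrial UMIs were kept, as in the methods of the study. With Seurat 5.3.0 the kept cells were normalized by SCTransform and clustered on 2000 variable genes, less any of the 9 enzyme genes, with 20 principal components at a resolution of 0.8, and the fibroblastic cells were clustered again in the same way. The deposited data used here hold no annotation of cells, so clusters were named from marker lists, and the scoring of markers was set with the clusters in view. Names may therefore differ from those of the study. No doublet caller was run, since the study saw no sign of doublets. Instead, the fits and mean levels of the 9 enzyme genes were recomputed without the 43.7% of named cells that held a UMI of any of 20 leukocyte or endothelial genes. The thinned shares, gene lists and likeness of pattern were not recomputed in this way.

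UMIs were summed per library and type (at least 10 cells) and tested in R 4.3.3 with edgeR 4.0.16 (TMM, filterByExpr, quasi-likelihood test) over all 16 libraries with no covariate. P-values were adjusted by Benjamini-Hochberg over all genes of a type, with calls under 0.05, and normalization factors lay between 0.945 and 1.05. On simulated counts for live draining against live non-draining nodes the test recovered 68.8% of 2-fold and 95.9% of 4-fold changes in MedRC (9929 genes), 84% and 99.0% in MRC (11840 genes), and 48.4% and 88.9% in PRC (8181 genes). In TRC it recovered 75.8% and 95.9%, in ActSC 27.2% and 90.8%, and in FDC 37.1% and 84.85%. Genes left unchanged were called 21 times in MRC, 10 in FDC, 9 in TRC, 6 in MedRC, 6 in ActSC and 4 in PRC. CPM here are shares of the summed UMIs of a type. Levels given with ± SD show the spread between libraries. For a single library, the precision of a level follows from its UMIs and covers counting error only. The labels give no batch.

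The 9 genes and all lists were chosen with earlier results of these data known. Named beside them are up to 4 called genes per list with the smallest p in live draining against live non-draining nodes, and the 3 genes most like each enzyme among those with a mean of at least 20 CPM in a type. Some genes that this rule names are not reported here. Alternatives were DESeq2 1.42.0 and its size factors, no filter on low counts, the library letter as a block, each library left out, only the 12 libraries of inoculated mice, clusters after log-normalization, cells gated one by one, no cells with a UMI of the 20 leukocyte or endothelial genes, and at most 10% mitochondrial UMIs. Positions came from the annotation of mm10 in the sources used here, which matched 99.2% of gene rows, and promoters from RefSeq.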

Additional observations from a re-analysis of the deposited data

Results flagged for a closer look

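In 8 pairs the effect of draining was not the same for live as for fixed MC38, by a test of the difference itself (edgeR, adjusted p as in the report). On the log2 scale, live minus fixed, the difference was -1.05 for Inmt in MedRC, -2.05 for Inmt in PRC and -1.29 for Inmt in MRC. For Cyp2f2 it was -1.61 in MedRC, -5.38 in PRC and -2.88 in MRC, for Cyp2e1 -2.32 in MedRC and for Cyp1b1 -0.55 in MRC.

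Of 36 naive groups of 4 libraries, 5 held 1 library far from the other 3, where chance alone marks about 1 in 20. Naive library D held 37.1 CPM of Cyp1b1 in FDC, 196.5 CPM of Cyp1b1 in PRC and 49.5 CPM of Cyp26b1 in FDC. Naive library A held 13.5 CPM of Cyp2f2 in TRC and naive library B 8.31 CPM of Hsd11b2 in ActSC.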

How the results depend on the processing

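Of 52 calls made over the 7 comparisons, each of 1 pair in 1 comparison, 17 were kept under every alternative that gave a value. Among them were 4 of the 12 of live draining against live non-draining nodes (Inmt in MedRC and PRC, Cyp2f2 and Cyp2e1 in MedRC). Over all tested pairs, 5808 of 6044 recomputed log2 fold changes kept direction and side of the threshold, 127 lost the call, 101 gained one and 8 turned direction. Of 450 recomputed mean levels, 142 moved by more than 1 SD. The 5 splits of clusters were added after seeing the data. The cause of these changes was not tested.

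Counts of called pairs moved as follows. Fixed draining against fixed non-draining gave 2 calls with no filter and 1 without cells of mixed markers, in place of 0. The difference of the effects gave 5 to 9 with 1 library left out (5 without fixed non-draining library C), 5 with gated cells and 5 in MRC without the largest cluster, in place of 8. Live non-draining against naive gave 9 with no filter, 2 with the block, 0 to 3 with 1 library left out (3 without live non-draining library C), 1 with log-normalized clusters, 1 with only the largest MRC cluster and 1 with ActSC joined to MedRC, in place of 0. Fixed draining against naive gave 6 with DESeq2, 6 with log-normalized clusters and 6 without the largest MRC cluster, in place of 10. Fixed non-draining against naive gave 3 with DESeq2, 12 with no filter, 1 to 7 with 1 library left out (1 without its library A or C and 3 without B), 3 with log-normalized clusters, 2 without mixed cells, 3 at 10% mitochondrial UMIs and 3 without the largest MRC cluster, in place of 6. DESeq2 gave no adjusted p for 6 to 17 pairs per comparison. In its counts such pairs stand as not called. Among them were 3 edgeR calls of fixed draining and 2 of fixed non-draining against naive. Where single calls are said to be kept or lost, these pairs were left out.

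With log-normalized clusters the MRC changes turned to 2.60 (Cyp2f2) and 0.87 (Inmt) for live draining against non-draining, 1.92 (Inmt) for the difference, 0.55 (Inmt) for live draining against naive and 0.65 (Cyp2f2) for fixed draining against naive. Without the largest MRC cluster Hsd11b2 gave -1.21 against live non-draining and -1.68 against naive in live draining nodes. Without mixed cells Inmt in PRC gave 1.15 for fixed draining against non-draining.

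The labels do not say that a library letter marks a shared mouse. Over 33 combinations of type, inoculum and letter, which reuse the same libraries across types, deviations correlated at -0.07 to 0.05, and the own letter was highest in 13. The replicate block moved the count of calls by over 1.5 times only for live non-draining against naive, as above. Depth limited the fixed non-draining node most, where PRC held 44 cells.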
